A study of Saccharomyces cerevisiae with 30 samples.

Results

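Whole-cell ribosome footprints after 60 min of auxin were set against those after 30 min in budding yeast whose signal recognition particle (SRP) was being depleted. The comparison rests on 6 of the 30 libraries of the study, namely the 3 input libraries collected at 60 min and the 3 collected at 30 min. They are all the input libraries taken at both times within 1 series, and each of 3 series gives 1 pair. An input library holds the footprints of all ribosomes of the culture, taken before the streptavidin step of proximity-specific ribosome profiling.

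All 3 series were S288C strains in which SRP72 carried an auxin-inducible degron with an HA tag, marked with LEU2. Both copies of Rpl16 (RPL16a and RPL16b) carried HA, a TEV site and the AVI acceptor for biotin, and all strains were leu2-delta-0, met15-delta-0 and ura3-delta-0 and expressed OsTIR1, the plant receptor through which auxin directs a degron-tagged protein to the proteasome. In the Sec63 series the biotin ligase BirA was fused to SEC63 with mVenus at its own locus, with OsTIR1-V5 and URA3 placed at his3. In the Ubc6 series BirA and mVenus, joined to the tail anchor of UBC6 and transcribed from the SEC63 promoter, stood at his3 beside OsTIR1-V5 and HIS5. Cells grew in synthetic medium with low biotin and received 500 µM auxin for 60 or 30 min. One Sec63 series and the Ubc6 series also received cycloheximide, which stalls elongating ribosomes, for 2 min before a 2 min pulse of 10 nM biotin, and the other Sec63 series received no cycloheximide and a 1 min pulse. Neither the promoter of OsTIR1 nor the number of clones is given in the labels. Auxin was given to every library compared, so the 60 against 30 min change is one of time after auxin, and no strain without the degron was compared here.

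SRP binds ribosomes as a signal sequence or the first transmembrane segment emerges and delivers them to the membrane of the endoplasmic reticulum (ER). Yeast survives the loss of SRP but grows poorly, and cells that lose it are known to mount a heat shock response under the factor Hsf1 and to repress the genes of ribosome production. The comparison asked which of these responses were still growing between 30 and 60 min, which had passed their maximum, and which began only in that interval.

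The 6 libraries held 8.88 M to 101.21 M footprints in the listed genes, and the 11 input libraries of the 3 series used in the fit, at 0, 15, 30 and 60 min, held 2.04 M to 113.5 M, the lowest being the Ubc6 library at 0 min. Each condition had 1 library, so the series is the unit that repeats. The p-values rest on the residuals of the fit to these 11 libraries, with 5 residual degrees of freedom, and no replicate cultures stand behind them. They do not measure how alike the 3 changes of 60 minus 30 min were. The labels do not say whether the times of a series came from 1 culture. Levels are in CPM, footprint counts scaled to library size with TMM factors, and values for a gene follow the order Sec63 with cycloheximide, Ubc6 with cycloheximide, Sec63 without cycloheximide. Counts obtained with 1 series left out follow the order of the series left out. Changes are log2 differences of 60 minus 30 min from the edgeR quasi-likelihood fit with the series as a block. A fitted change need not equal the mean of the changes within the 3 series. The standard error (SE) given with it comes from the F statistic of that fit to 11 libraries. It does not measure the spread of the changes of the 3 series. Beside it stands the p adjusted over all 5268 genes tested. A gene rose or fell where that adjusted p was under 0.05. Because CPM is a share, these data show which messages gained or lost relative to the others and not whether total translation changed. A lower footprint share can come from fewer messages or from fewer ribosomes on each, and footprints alone cannot tell these apart.

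SRP72 itself, the degraded subunit, had 69.0, 87.5 and 81.7 CPM at 60 min, against 83.3, 86.4 and 102 CPM at 30 min. The groups overlapped in level, and its change of -0.19 ± 0.12 did not pass (adjusted p = 0.267). Footprints on SRP72 report synthesis of the subunit and say nothing of the protein that auxin removes, so they do not check the depletion. Of the 8 SRP and receptor genes, SRP72 included, 0 rose and 0 fell, with a median change of -0.18 (but 0.048 with library totals in place of TMM). When libraries were centred on glycolysis and translation factor genes, which lifts all other genes, all 8 rose, with a median of 0.49. MET17, deleted in all strains, had at most 1 count in any of the 11 inputs. The a-type mating genes MFA1, MFA2, STE2 and BAR1 had 76.1 to 365.1 CPM, and the alpha-type genes MF(ALPHA)1 and MF(ALPHA)2 had at most 0.369 CPM. STE3, also an alpha-type gene, was low but read in every input, at 2.16 to 4.21 CPM. URA3 had 58.4 to 211.8 CPM in the Ubc6 series, although the genotype given for that strain lists ura3-delta-0 and no URA3 marker. HIS3 had at most 1 count in the Ubc6 series and 8.35 to 18.8 CPM in both Sec63 series.

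Between 30 and 60 min, 525 of 5268 genes rose (9.97%) and 782 fell (14.8%), and 99 and 252 of them by over 2-fold. Of the 525 and 782, 518 and 781 had the same sign in all 3 series, a pattern that 32.3% of all genes showed upward and 28.4% downward. The largest rises and falls named below are the largest among these. The preceding change, 30 minus 0 min, had 776 higher (14.7%) and 891 lower (16.9%), and 60 minus 0 min had 1511 higher (28.7%) and 1383 lower (26.3%). The 15 minus 0 min change, measured in 2 series, had 304 higher (5.77%) and 484 lower (9.19%). The balance of the 60 minus 30 min calls depends on the scaling: it was 1478 higher and 495 lower with library totals in place of TMM, which moved the median of all genes to 0.28 against 0.05. It was 3997 higher and 236 lower when libraries were centred on glycolysis and translation factor genes, which moved that median to 0.73. Those genes themselves fell under TMM, so that centring lifts all others. Relative to the median of all genes, no list median differed by more than 0.021 between the 3 scalings. This follows from how they are built, since each scaling shifts all genes by 1 amount per library, and it does not show which scaling is right. With library totals 15 of the 43 list medians changed sign, and under the centring 24 did. Left without 1 series, the fit called 203 higher and 514 lower without the Sec63 series with cycloheximide, 266 and 587 without the Ubc6 series, and 238 and 582 without the Sec63 series lacking cycloheximide.

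Genes were sorted by both intervals. Of the 5268 genes, 217 rose in both (still rising, 4.12%), 330 fell in both (still falling, 6.26%), 51 rose and then fell (peaked, 0.968%) and 45 fell and then rose (recovering, 0.854%). A further 308 were higher at 30 min and stayed within 0.25 log2 units with no call afterwards (held high, 5.85%), and 306 were held low in the same way (5.81%). The late classes, with no call at 15 or 30 min and a 30 minus 0 min change within 0.25, had 124 rises (2.35%) and 294 falls (5.58%). The remaining 139 rises and 107 falls of the interval had no class. Both intervals share the 30 min libraries, so the counts of peaked and recovering genes are descriptions.

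**Figure D1:**
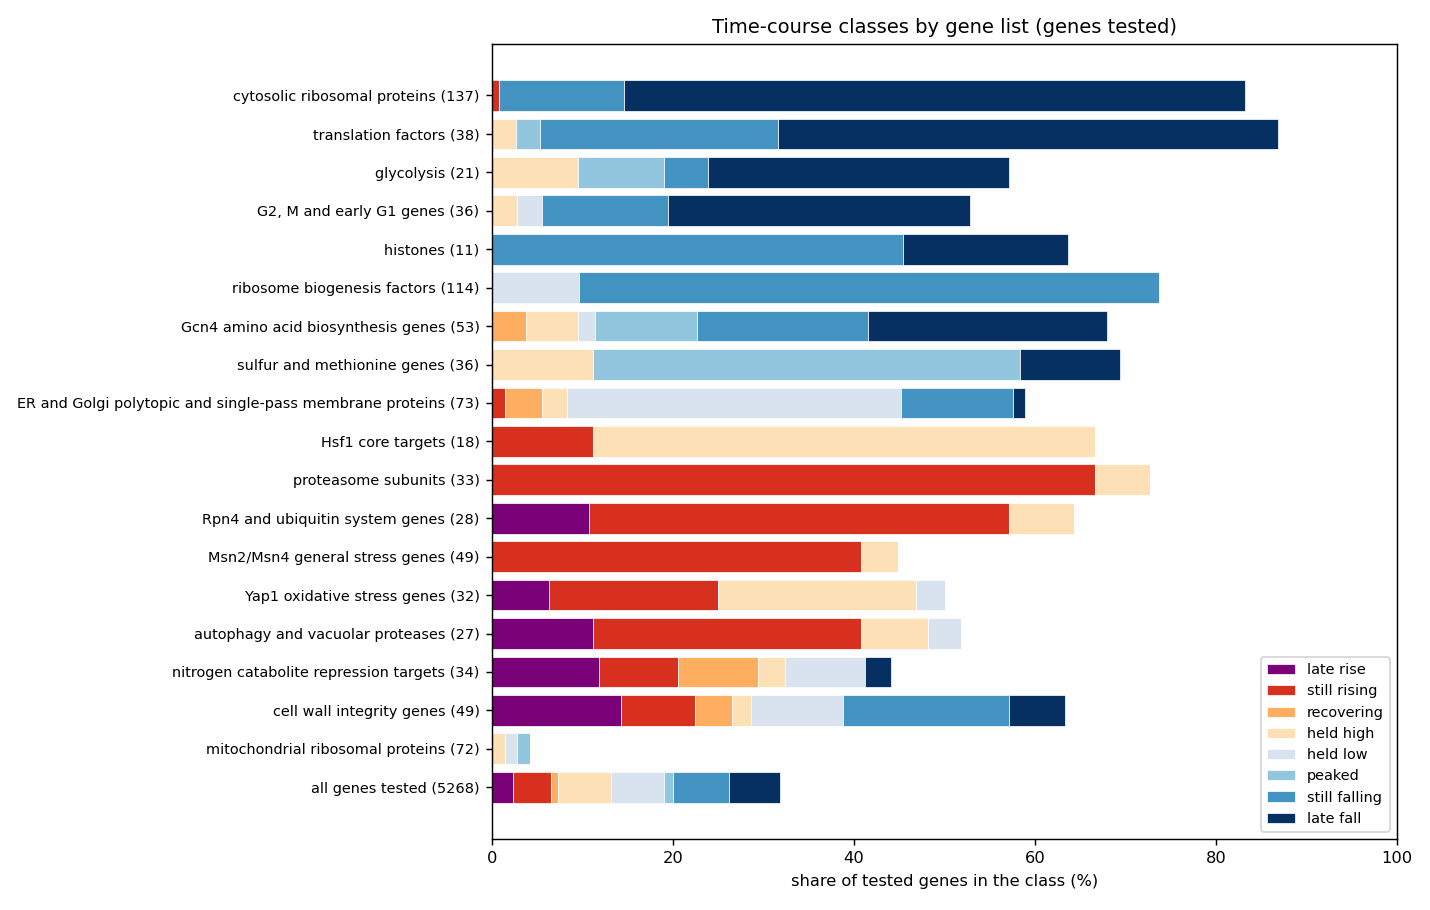
Share of the tested genes of each list in the 8 time-course classes (horizontal axis, percent), with the number tested in brackets and all 5268 genes in the bottom row. Late falls fill most of the ribosomal protein bar (94 of 137 genes), still falling genes most of the ribosome biogenesis bar (73 of 114), peaked genes the largest block of the sulfur bar (17 of 36) and held high genes most of the Hsf1 bar (10 of 18).

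Among the lists, the late class with the most members was the fall of cytosolic ribosomal protein genes, which encode the subunits of the ribosome. Of 137 tested, 133 fell and 1 rose, with a median of -1.2 against 0.05 over all genes, and the medians of the series were -1.21, -1.3 and -1.07. From 0 to 30 min 19 had fallen and 1 had risen (median -0.14), and at 15 min 1 had fallen. In unscaled shares, these genes took 8.33%, 6.06% and 7.40% of all footprints at 60 min, against 15.6%, 13.3% and 13.5% at 30 min, so the share in every 60 min library was below that in every 30 min library. At 0 min the shares were 17.8%, 17.6% and 17.3%, so the unscaled share had already dropped in part by 30 min. RPL9A, a protein of the large subunit, had 419, 281 and 404 CPM at 60 min, against 1815, 1121 and 1417 CPM at 30 min. Its 60 min levels all lay below its 30 min levels, a change of -1.97 ± 0.12, adjusted p = 4.52e-06, while its 30 minus 0 min change was -0.17 and not called.

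RPL3, which lines part of the peptidyl transferase centre, had 2531, 1769 and 2688 CPM at 60 min, against 6073, 4588 and 5821 CPM at 30 min, again without overlap (-1.25 ± 0.10, adjusted p = 1.32e-05). The small subunit genes gave the same picture. RPS26B had 112, 92.5 and 154 CPM at 60 min, against 470.0, 365 and 434 CPM at 30 min (-1.85 ± 0.17, adjusted p = 2.70e-05), and RPS22A, RPS9B and RPS29A changed by -1.74 ± 0.11, -1.62 ± 0.10 and -1.54 ± 0.099. The 4 exceptions, named after their values were seen, were all one copy of a duplicated gene: RPL15B rose by 0.54 ± 0.10, and RPL9B (-0.29 ± 0.12), RPL41B (-0.74 ± 0.37) and RPS9A (0.36 ± 0.17) did not pass. The partners of RPL9B and RPS9A are RPL9A and RPS9B, given above. Most ribosomal protein genes come as near-identical pairs, and how reads with several matches were counted is not given in the sources used here, so values of single copies are uncertain. The fall of the list does not rest on 1 series, since 126, 127 and 130 members fell with 1 series left out. With library totals 126 fell, and with the centring on glycolysis and translation factor genes 106 fell.

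**Figure D2:**
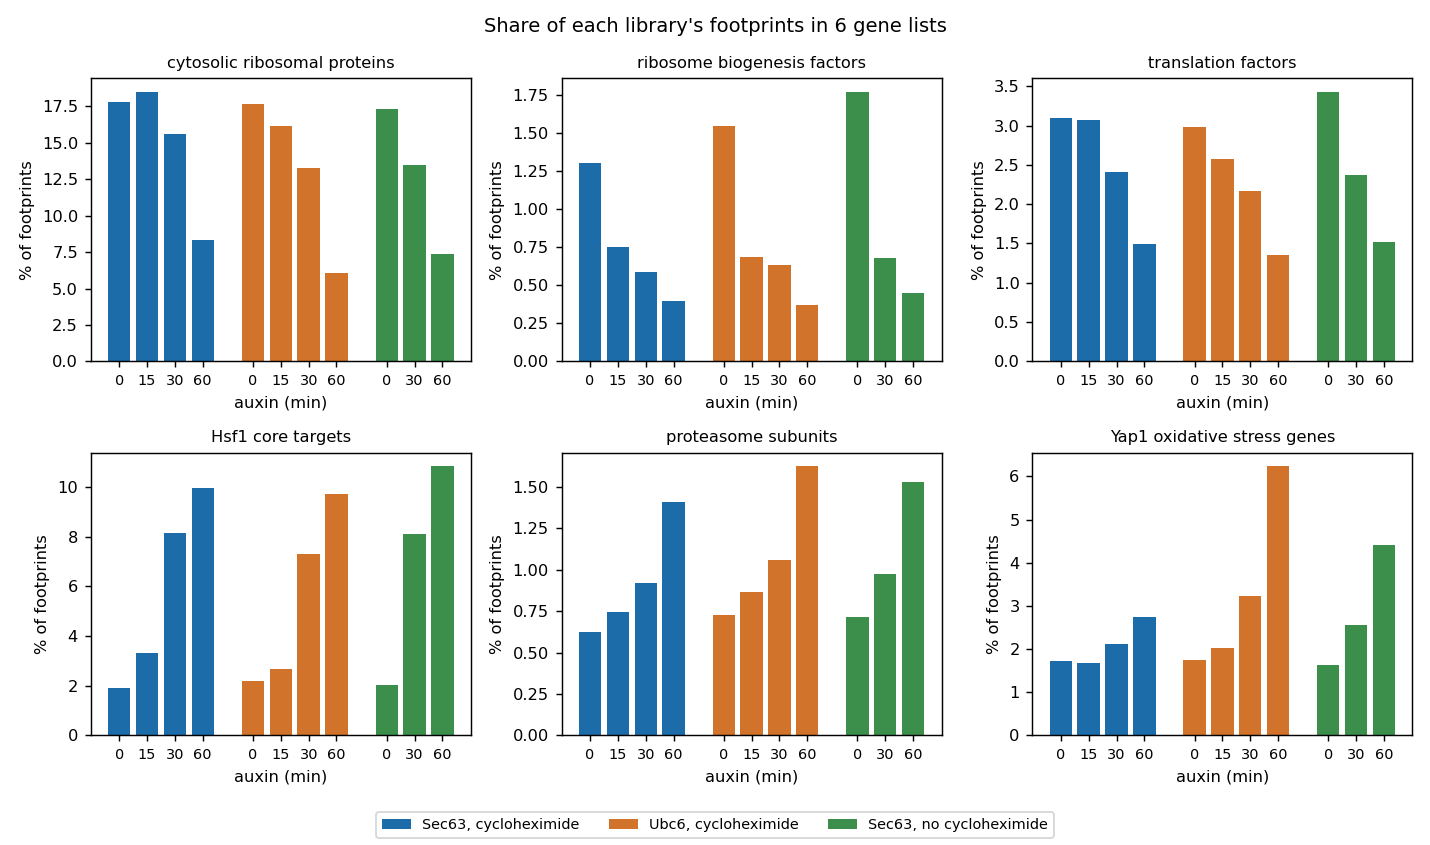
Share of each library's footprints, in percent of the unscaled total, taken by 6 gene lists at 0, 15, 30 and 60 min of auxin (the series without cycloheximide has no 15 min library), 1 bar per library and coloured by series. Ribosomal protein genes took 6.06% to 8.33% at 60 min, against 13.3% to 15.6% at 30 min, and Hsf1 targets took 9.72% to 10.85% at 60 min, against 7.31% to 8.17% at 30 min.

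Translation factors followed in the same interval. Of 38 tested, 33 fell and none rose (median -0.62, and by its construction 0.058 under the centring), 21 of them as late falls and 10 still falling. With 1 series left out, 21, 25 and 28 fell. The unscaled share of the list was 3.1%, 3.0% and 3.4% at 0 min, 2.4%, 2.2% and 2.4% at 30 min, and 1.5%, 1.4% and 1.5% at 60 min. YEF3, the fungal elongation factor that helps release spent tRNA from the ribosome, had 1706, 1246 and 1679 CPM at 60 min, against 7465, 4781 and 6841 CPM at 30 min, a change of -2.03 ± 0.10, adjusted p = 1.72e-06, and all its 60 min levels lay far below its 30 min levels. TEF4, a subunit of the elongation factor that recycles eEF1A, fell by 1.32, NEW1, a relative of YEF3, by 1.12 and PAB1, the poly(A)-binding protein, by 0.95 on the log2 scale. ANB1, the hypoxic form of the factor eIF5A, was among the largest late falls at -1.96 ± 0.55 but had only 0.295 to 1.92 CPM at 60 min, against 2.45 to 7.70 CPM at 30 min. The ribosome-bound chaperones fell with them: SSB1 had 471, 308 and 418 CPM at 60 min, against 1950.3, 1217 and 1609 CPM at 30 min (-1.99 ± 0.11, adjusted p = 3.13e-06), its near-identical partner SSB2 changed by -1.8 ± 0.091, and SSZ1, of the ribosome-associated complex, by -0.77 ± 0.097. Of the nascent chain-binding complex, EGD2 fell late by 0.70 and EGD1 by 0.62.

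Glycolysis was split. Of 21 genes tested 12 fell and none rose (median -0.62, and by its construction 0.059 under the centring), whereas from 0 to 30 min 8 had risen and 1 had fallen. TPI1, triose phosphate isomerase, had 3282, 2400.4 and 3583 CPM at 60 min, against 7274, 5145 and 6848 CPM at 30 min and fell late by 1.06. PFK2, a subunit of phosphofructokinase, also fell late, by 0.92, and neither gene's groups overlapped. TDH2, a glyceraldehyde phosphate dehydrogenase with a near-identical sister in TDH3, had peaked: it had 1526, 999.5 and 1935 CPM at 60 min, against 4685, 3138 and 4901 CPM at 30 min, after a rise of 0.83 from 0 to 30 min. ADH4, a zinc-responsive alcohol dehydrogenase, showed the second largest fall of the interval, with 44.3, 42.0 and 32.2 CPM at 60 min, against 332, 269.7 and 373 CPM at 30 min (-3.01 ± 0.27, adjusted p = 2.03e-05). The largest fall was that of VEL1, a gene of unknown function known to respond to zinc shortage, with 0.596, 1.18 and 0.479 CPM at 60 min, against 5.88, 4.29 and 10.0 CPM at 30 min (-3.21 ± 0.54, adjusted p = 0.00141). The others of the 10 largest falls that are not described with a group were SAG1, the alpha-agglutinin, on very few footprints (0.794, 0.590 and 0.419 CPM at 60 min, against 3.78, 1.97 and 3.38 CPM at 30 min, -2.37 ± 0.72), RHO5, a small GTPase (-2.95 ± 0.68), HMS2, a relative of heat shock factors (-2.12 ± 0.41), and PHO12, an acid phosphatase with near-identical copies (-2.11 ± 0.60). The zinc and copper list as a whole had 3 of 19 higher and 3 lower, and 1, 2 and 3 higher without 1 series.

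Genes of cell separation and of the daughter cell also fell after 30 min. Of 36 genes expressed in G2, M or early G1, 20 fell and none rose (median -0.44, but 0.25 under the centring), 12 of them late, against 6 lower and 1 higher from 0 to 30 min. In fits that lacked 1 series, 12, 15 and 16 fell. DSE1, a daughter-specific gene of cell separation, had 42.2, 80.0 and 50.5 CPM at 60 min, against 184, 214 and 207 CPM at 30 min (-1.83 ± 0.19, adjusted p = 5.56e-05), with no overlap. AMN1, a daughter-specific inhibitor of mitotic exit, had 20.5, 13.1 and 13.8 CPM at 60 min, against 53.2, 51.4 and 52.4 CPM at 30 min (-1.73 ± 0.20, adjusted p = 9.93e-05). DSE3 fell by 1.27, and EGT2 and the chitinase gene CTS1, both needed for septum breakdown, changed by -0.80 ± 0.11 and -1.72 ± 0.25. Histones had begun earlier: 9 of 11 fell in the interval (median -0.75, 6, 8 and 9 with 1 series left out) after 6 of 11 had fallen by 30 min, and none at 15 min. HTB2, encoding H2B, had 237, 175 and 230.1 CPM at 60 min, against 534, 432 and 522 CPM at 30 min (-1.21 ± 0.11, adjusted p = 2.20e-05), and HTA2, HTA1 and HHF2 changed by -1.15 ± 0.12, -0.89 ± 0.093 and -1.0 ± 0.11. Genes of G1 and S phase, including CLN2, had 7 of 35 lower and 1 higher (median -0.18, but 0.050 with library totals and 0.50 under the centring), with 2, 5 and 2 lower with 1 series left out. Over all genes 24.8% were called in either direction, so this count does not set the G1 and S phase list apart. CLN2, a G1 cyclin, had 48.1, 42.8 and 36.7 CPM at 60 min, against 50.3, 49.7 and 50.9 CPM at 30 min, a change of -0.24 ± 0.14 that did not pass (adjusted p = 0.22), and it was held low after a change of -0.99 by 30 min. Footprints of a mixed culture cannot tell fewer cells in a phase from a lower level in each cell.

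Pheromone response genes had 9 of 23 lower and none higher (median -0.49, but 0.19 under the centring). When 1 series was dropped, 6, 9 and 6 were lower. FAR1, which arrests the cycle in mating cells, had 33.4, 24.0 and 34.7 CPM at 60 min, against 67.4, 66.3 and 79.3 CPM at 30 min and was still falling (-1.21 ± 0.14, adjusted p = 0.000109), and STE4, the G protein beta subunit, fell late by 0.94. AGA2, the binding subunit of the a-agglutinin, had peaked: it had 26.8, 12.3 and 43.3 CPM at 60 min, against 70.9, 50.7 and 96.4 CPM at 30 min, after a 30 minus 0 min change of 1.39. All 3 genes had every 60 min level below every 30 min level.

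Ribosome biogenesis factors, the nucleolar proteins that make rRNA and assemble subunits, were the main group that had fallen early and went on falling. Of 114 tested, 74 fell further and none rose in the interval (median -0.71, and -0.029 under the centring, with 17 higher and 21 lower), after 107 had fallen by 30 min (median -1.0) and 93 by 15 min. At 60 min all 114 were lower than at 0 min. NOP1, the fibrillarin methyltransferase, had 137, 109.9 and 191 CPM at 60 min, against 369, 290.2 and 444 CPM at 30 min (-1.34 ± 0.16, adjusted p = 0.000101), and it had been at 996, 664 and 727 CPM at 0 min. RRP5, a scaffold of the early pre-ribosome, had 76.0, 54.8 and 88.1 CPM at 60 min, against 256, 173 and 257 CPM at 30 min (-1.65 ± 0.10, adjusted p = 5.00e-06). DBP2, a DEAD-box helicase, had 21.1, 12.2 and 24.7 CPM at 60 min, against 102, 54.9 and 98.7 CPM at 30 min (-2.14 ± 0.17, adjusted p = 1.19e-05), on top of a change of -2.47 by 30 min, so that both intervals lowered it about equally. The order of these events can be read in the plot of list medians under TMM scaling. There, biogenesis factors were already low at 15 min, and ribosomal proteins had medians of 0.041, -0.24 and -0.16 at 30 min. The unscaled share of ribosomal proteins had dropped more by then, as given above.

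**Figure D3:**
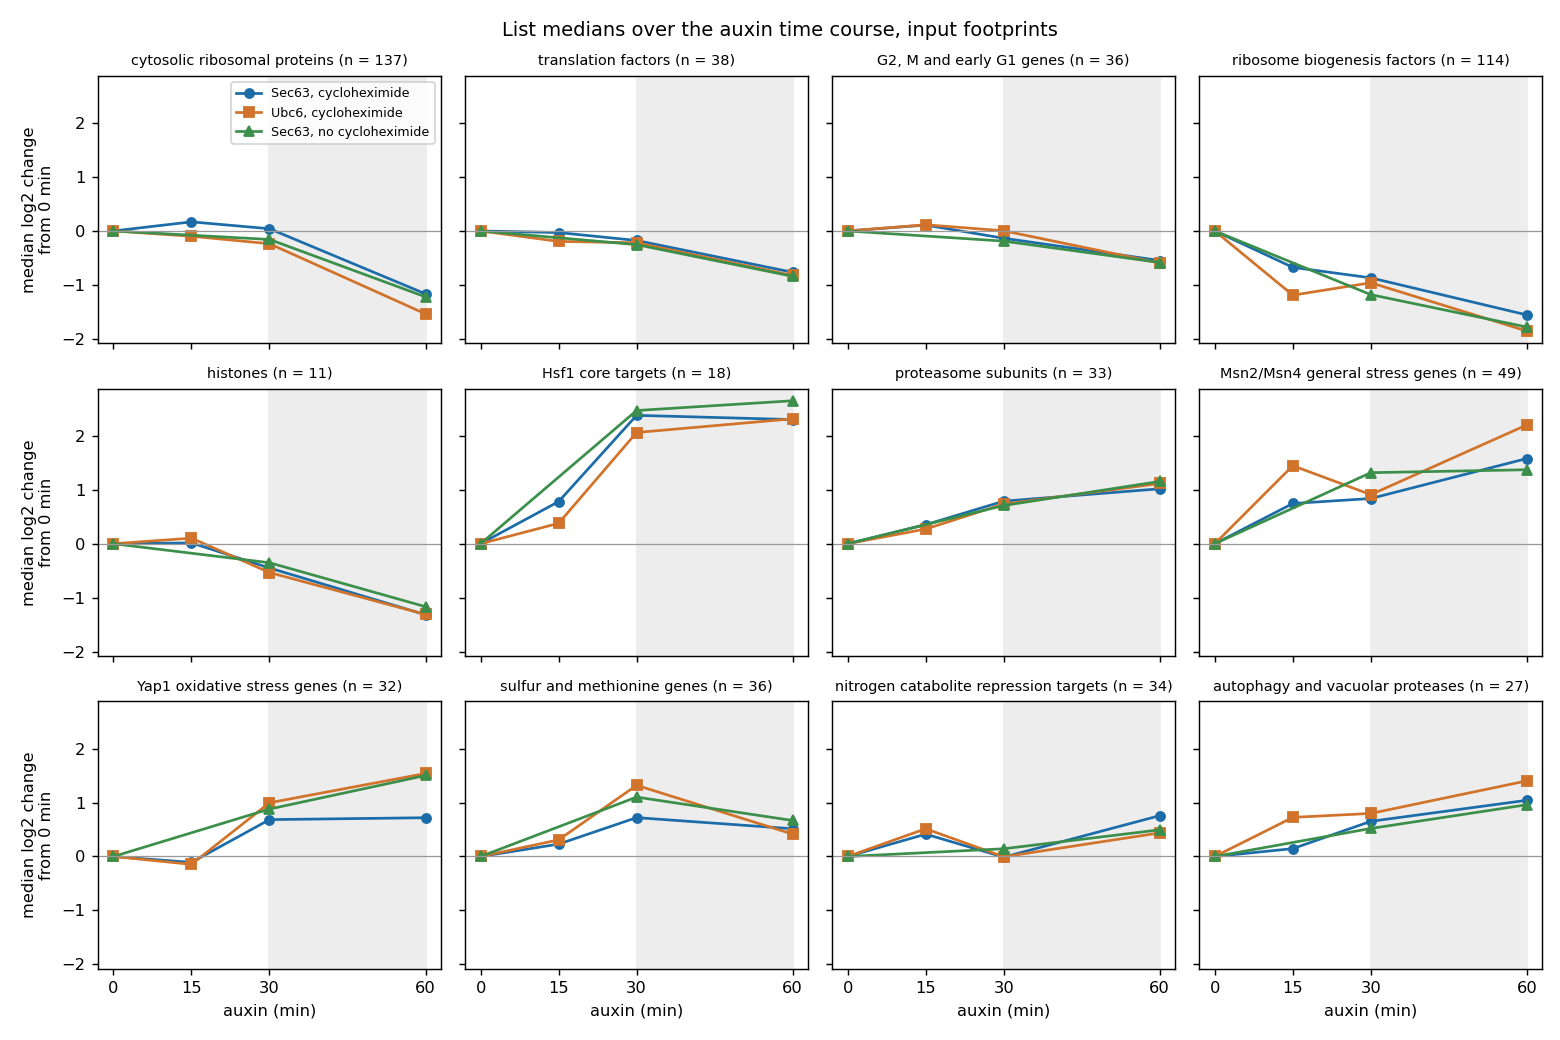
Median log2 change from 0 min (vertical axis) against minutes of auxin (horizontal axis) for 12 gene lists, 1 line per series, with the 30 to 60 min interval shaded and the number of tested genes in each title. Ribosomal proteins, translation factors and G2, M and early G1 genes bend down after 30 min, Hsf1 targets level off, and sulfur and methionine genes turn down in all 3 series (TMM scaling; under the centring on glycolysis and translation factor genes the medians of translation factors, of G2, M and early G1 genes and of sulfur genes were 0.058, 0.25 and 0.12).

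Other biosynthetic genes fell with them. Purine and pyrimidine synthesis had 13 of 31 lower and none higher (median -0.25, but 0.42 under the centring). IMD4, an IMP dehydrogenase that commits purines to GTP, had 73.8, 38.3 and 64.9 CPM at 60 min, against 336, 189 and 324 CPM at 30 min and was 1 of the largest falls (-2.27 ± 0.14, adjusted p = 4.52e-06), and its paralog IMD3 (-1.39 ± 0.090), GUA1, which makes GMP (-1.36 ± 0.12), and FUR1, which salvages uracil (-1.27 ± 0.10), also fell. RKI1, the ribose phosphate isomerase that feeds nucleotide synthesis, had 6.69, 7.58 and 6.04 CPM at 60 min, against 31.4, 22.9 and 33.0 CPM at 30 min (-2.12 ± 0.19, adjusted p = 1.99e-05). SEC53, the phosphomannomutase that supplies mannose for glycosylation, had 102, 78.0 and 138 CPM at 60 min, against 437, 340.0 and 484 CPM at 30 min (-2.01 ± 0.10, adjusted p = 1.72e-06). In the list of biotin and thiamine genes 7 of 17 fell and none rose (median -0.38, but 0.32 under the centring), all 7 still falling. BIO3, BIO4 and VHT1, which make and import biotin, had changes of -1.36 ± 0.16, -1.25 ± 0.17 and -1.01 ± 0.15, and PHO3, a phosphatase repressed by thiamine, of -1.54 ± 0.14. Biotin was also the label added before harvest, for the same time at 60 and at 30 min within each series, and its part in these changes was not tested.

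Fatty acid and phospholipid genes had 13 of 40 lower and 1 higher (median -0.20, but 0.037 with library totals and 0.48 under the centring). With 1 series left out, 6, 9 and 8 were lower. FAS1 and FAS2, both subunits of fatty acid synthase, had 1369, 1027 and 1291 CPM at 60 min, against 2357, 1741 and 2469.7 CPM at 30 min for FAS1 and changed by -0.82 ± 0.12 and -0.61 ± 0.094. FAA4, a fatty acyl-CoA synthetase, changed by -1.33 ± 0.15 and ELO3, an elongase, by -1.0 ± 0.12. OLE1, the single fatty acid desaturase, had 66.9, 52.6 and 65.7 CPM at 60 min, against 72.5, 56.6 and 82.3 CPM at 30 min, levels that overlapped, with a change of -0.17 ± 0.18 that did not pass (adjusted p = 0.525). It was the largest of the genes held low, with -3.14 from 0 to 30 min, and most of that, -2.06, was present at 15 min. Membrane proteins of the ER and Golgi were held low more often than they fell further: 42 of 73 had fallen by 30 min, and in the interval 10 fell and 5 rose (median -0.026, but 0.21 with library totals and 0.65 under the centring), with 27 held. Without 1 series, 5, 8 and 5 of them fell and 2, 3 and 1 rose. Over all genes 14.8% fell and 9.97% rose in the interval. PMT2, a protein O-mannosyltransferase, went on falling by 0.59 and EMP70 by 0.65, whereas PHO8, the vacuolar alkaline phosphatase, recovered with 145, 151 and 102 CPM at 60 min, against 102, 98.7 and 69.8 CPM at 30 min (0.55 ± 0.092, adjusted p = 0.00131).

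Of the mitochondrial lists, TCA cycle and matrix enzymes had 14 of 33 lower and 3 higher (median -0.22, but 0.021 with library totals and 0.46 under the centring). ACO1, the aconitase of the TCA cycle, had 1006, 872 and 1065 CPM at 60 min, against 3520.4, 2599 and 3297 CPM at 30 min (-1.67 ± 0.14, adjusted p = 1.57e-05). MIS1, the mitochondrial C1-tetrahydrofolate synthase, changed by -1.5 ± 0.097. CYC1, the main cytochrome c, had 12.1, 28.7 and 16.3 CPM at 60 min, against 64.1, 112 and 84.3 CPM at 30 min and was among the 10 largest falls (-2.23 ± 0.22, adjusted p = 4.02e-05), yet the respiratory chain list had 6 of 47 lower and 4 higher (median -0.062, but 0.17 with library totals and 0.62 under the centring). Against 0 min, that list had 24 higher and 0 lower at 15 min (median 0.56), and 12 higher and 1 lower at 30 min (median 0.25). Mitochondrial ribosomal proteins had 1 of 72 lower and none higher, with a median of -0.094 that became 0.14 with library totals and 0.59, with 64 higher, under the centring. That 1 gene, MRPS28, changed by -0.44 ± 0.13. Import machinery had 5 of 41 lower and 1 higher, and carriers 6 of 33 lower and 1 higher, among them PET9, the major ADP/ATP carrier (-0.66 ± 0.10). Over all genes 14.8% fell and 9.97% rose, so the falls of the import, carrier and respiratory chain lists were near the share of all genes. Fits that lacked 1 series put 3, 1 and 1 import genes and 4, 5 and 3 respiratory chain genes lower. They called no mitochondrial ribosomal protein gene. The median of the carriers was -0.081, but 0.16 with library totals and 0.60 under the centring.

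Hsf1 targets, the chaperones that refold and disaggregate proteins, had risen by 30 min, with few calls afterwards. All 18 had risen from 0 to 30 min with a median of 2.38, 12 of them already at 15 min, and in the interval 2 rose and none fell (median 0.048, against 0.05 over all genes). Each fit that lacked 1 series called 1 rise. With library totals 8 rose, with a median of 0.28 against 0.28 over all genes. Under the centring on glycolysis and translation factor genes 14 rose, with a median of 0.72 against 0.73 over all genes. In unscaled shares, these genes took 9.98%, 9.72% and 10.85% of all footprints at 60 min, against 8.17%, 7.31% and 8.12% at 30 min. The levelling is thus one relative to the other genes. HSP104, the disaggregase, had 9598, 11832 and 14291 CPM at 60 min, against 13129, 9861 and 13386 CPM at 30 min, levels that overlapped, with a change of -0.032 ± 0.19 (adjusted p = 0.924). It had been at 831, 1161 and 836 CPM at 0 min. HSP42, a small heat shock protein that gathers aggregates, had 2841, 2953 and 3215 CPM at 60 min, against 3515, 2493 and 3374 CPM at 30 min (-0.063 ± 0.28), BTN2, which sorts them, had 1923, 1801 and 2512 CPM at 60 min, against 2546, 1759.5 and 2297 CPM at 30 min (-0.075 ± 0.43), and SIS1, an Hsp40, changed by -0.24 ± 0.12. None of these 4 changes passed. SSA4, the inducible Hsp70, had 12024, 13817 and 14629 CPM at 60 min, against 12897, 9145 and 11358 CPM at 30 min (0.25 ± 0.61, adjusted p = 0.807).

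The members that went on rising were SSA1, a constitutive Hsp70 with a near-identical sister in SSA2, with 18048, 14257 and 20587 CPM at 60 min, against 14372, 10048 and 14309.7 CPM at 30 min (0.45 ± 0.13, adjusted p = 0.0244), and HCH1, an activator of Hsp90, with 708, 747 and 612 CPM at 60 min, against 466, 427 and 362 CPM at 30 min (0.72 ± 0.10, adjusted p = 0.000418). HSP60, the chaperonin of the mitochondrial matrix, had 4159, 4380.3 and 5048 CPM at 60 min, against 5263, 4827 and 5631 CPM at 30 min and was held (-0.21 ± 0.11, adjusted p = 0.182). SSC1, the matrix Hsp70, fell slightly, by 0.34. KAR2, the Hsp70 of the ER lumen, had 6833, 6271 and 5354 CPM at 60 min, against 5775, 4760.0 and 4628 CPM at 30 min, which overlap, and its change of 0.28 ± 0.22 did not pass (adjusted p = 0.393). The unfolded protein response list, genes that the factor Hac1 induces under ER stress, had 8 of 35 higher and 3 lower (0, 2 and 2 higher with 1 series left out), after 6 higher and 12 lower by 30 min. DFM1, of ER-associated degradation, had 71.0, 69.3 and 63.1 CPM at 60 min, against 50.6, 48.2 and 44.4 CPM at 30 min and recovered (0.51 ± 0.13, adjusted p = 0.0161). HAC1 was called at 2.82 ± 0.93 (adjusted p = 0.0469) on few footprints: it had 4.57, 0 and 2.39 CPM at 60 min, against 0.477, 0.172 and 0.199 CPM at 30 min, so the Ubc6 series went the other way and the groups overlapped.

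**Figure D4:**
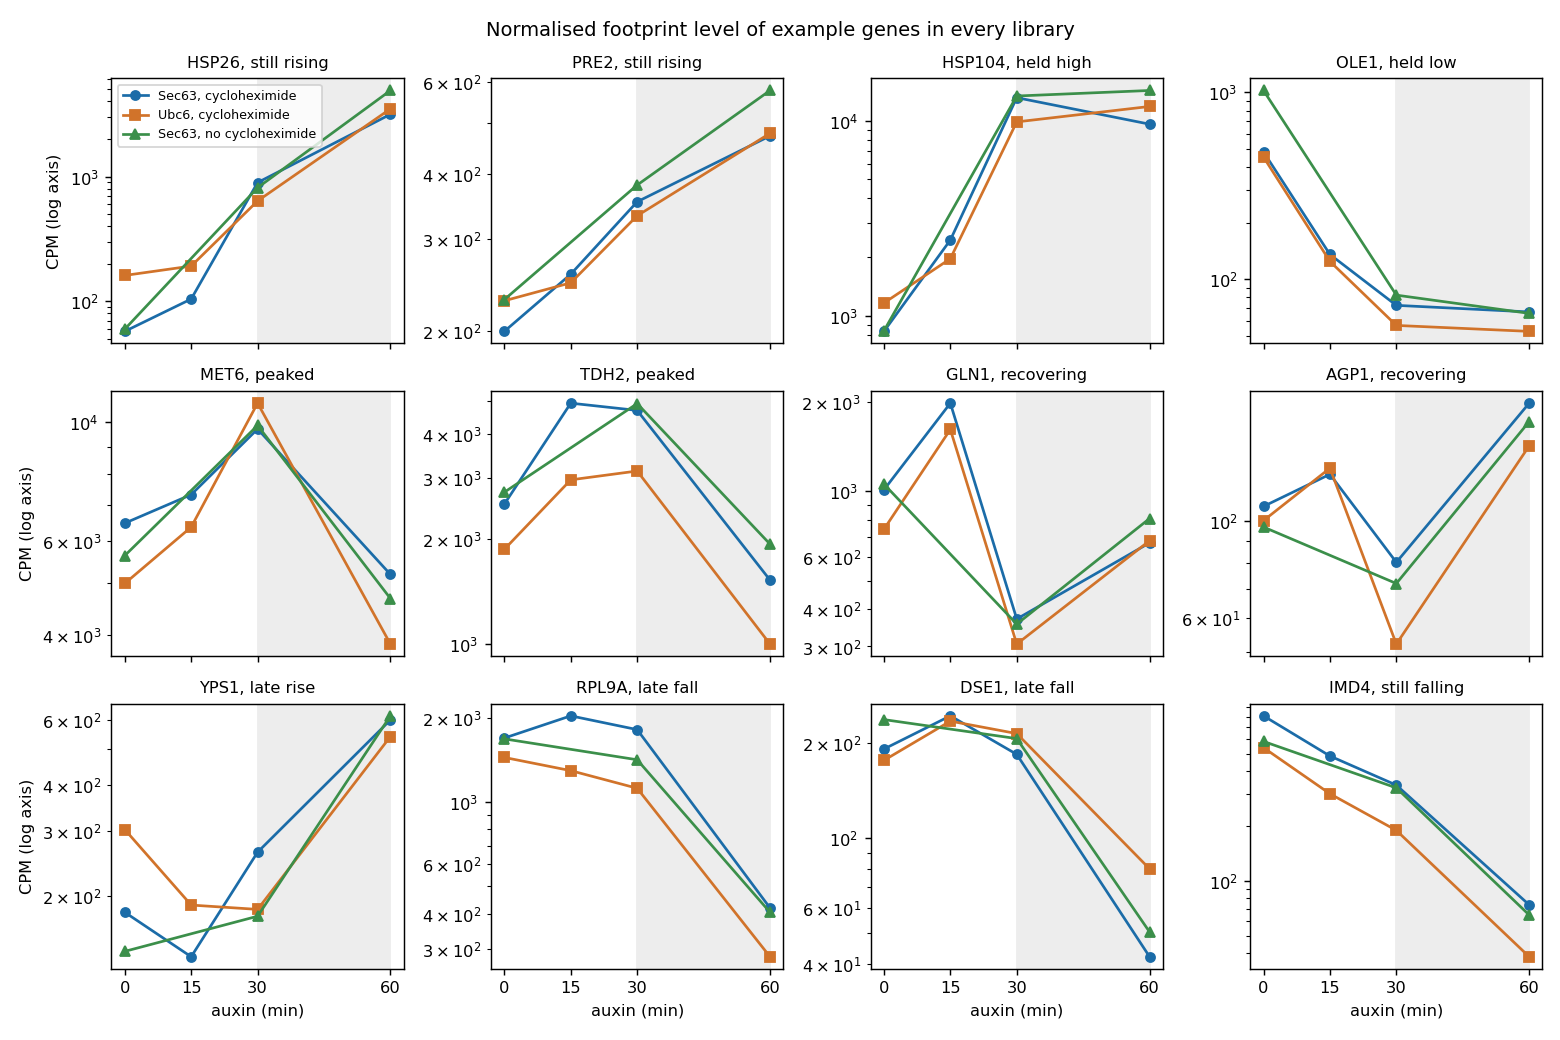
CPM on a log axis against minutes of auxin in every library for 12 example genes, 1 line per series, each with its time-course class in the title and the 30 to 60 min interval shaded. HSP26, PRE2 and YPS1 climb through the shaded interval, HSP104 and OLE1 are level in it, MET6, TDH2, RPL9A, DSE1 and IMD4 drop, and GLN1 and AGP1 turn up.

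Genes of protein degradation went on rising. All 33 proteasome subunits had risen by 30 min (median 0.72), and 22 rose further and none fell in the interval (median 0.42, members between 0.24 and 0.57). PRE2, a catalytic subunit of the core, had 472, 478 and 577 CPM at 60 min, against 354, 332 and 381 CPM at 30 min, with every 60 min level above every 30 min level (0.51 ± 0.096, adjusted p = 0.00282). RPN12, of the regulatory lid, had 352, 418 and 373 CPM at 60 min, against 261, 269 and 276 CPM at 30 min (0.50 ± 0.092, adjusted p = 0.0025), and PUP3 and PRE7, also of the core, changed by 0.57 ± 0.11 and 0.51 ± 0.096. With 1 series left out only 3, 4 and 8 subunits were called, while the list median was 0.42, 0.37 and 0.38. RPN4, the transcription factor of proteasome genes, had 358, 428 and 439.8 CPM at 60 min, against 287, 306 and 266 CPM at 30 min (0.50 ± 0.14, adjusted p = 0.0207). In the wider list of Rpn4 targets and ubiquitin genes 16 of 28 rose and none fell, 13 of them still rising, and 5, 8 and 4 rose with 1 series left out. UBI4, the stress-induced polyubiquitin gene, had 2434, 2388 and 2589 CPM at 60 min, against 1704, 1347 and 1711 CPM at 30 min (0.64 ± 0.12, adjusted p = 0.00309), and UBC5, a ubiquitin-conjugating enzyme of stress, had 105, 94.0 and 86.0 CPM at 60 min, against 41.7, 47.3 and 43.0 CPM at 30 min (1.11 ± 0.15, adjusted p = 0.000343). UFD1, of the Cdc48 complex, and UMP1, which assists proteasome assembly, changed by 0.62 ± 0.11 and 0.66 ± 0.12.

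Autophagy genes and vacuolar proteases rose alongside. Of 27 tested, 15 rose and 1 fell (median 0.53), 8 of them still rising and 3 late. The 1 that fell, named after its value was seen, was VPS4, an ATPase of endosomal sorting (-0.54 ± 0.15). ATG1, the kinase that starts autophagy, had 55.7, 68.9 and 61.4 CPM at 60 min, against 36.4, 34.8 and 34.8 CPM at 30 min (0.80 ± 0.13, adjusted p = 0.00089). PRB1, the vacuolar protease B, had 2227, 1995 and 1846 CPM at 60 min, against 960.2, 996 and 773 CPM at 30 min (1.16 ± 0.20, adjusted p = 0.00193), and AMS1, the vacuolar mannosidase, had 132, 156 and 151 CPM at 60 min, against 56.8, 71.8 and 48.7 CPM at 30 min (1.31 ± 0.18, adjusted p = 0.000312). In each of these 3 genes the 60 min levels all exceeded the 30 min levels. In fits that lacked 1 series, 5, 8 and 9 members rose.

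General stress genes under Msn2 and Msn4 had 21 of 49 higher and none lower in the interval (median 0.67), after 27 higher at 15 min and 35 by 30 min, and 20 were still rising. The list median at 15, 30 and 60 min was 0.75, 0.84 and 1.58 in the Sec63 series with cycloheximide. In the Ubc6 series it was 1.45, 0.91 and 2.20, so it dipped at 30 min. Without cycloheximide it was 1.32 at 30 min and 1.37 at 60 min. The median change of 60 minus 30 min was 0.72 and 0.99 in the series with cycloheximide and 0.20 in the series without it. HSP26, a small heat shock protein counted among the other cytosolic chaperones, had 3155, 3489 and 4896 CPM at 60 min, against 895, 637 and 814 CPM at 30 min, without overlap (2.26 ± 0.34, adjusted p = 0.000693), after 3.24 by 30 min. HOR7, a small stress protein, had 2691, 2239 and 2908 CPM at 60 min, against 1307, 1138 and 1115 CPM at 30 min (1.13 ± 0.14, adjusted p = 0.000151), and PNC1, the nicotinamidase, and GRE3, an aldose reductase, changed by 0.86 ± 0.12 and 0.68 ± 0.11. HSP12, a membrane-stabilising stress protein, had 2326, 3408 and 1141 CPM at 60 min, against 437, 1648 and 1454 CPM at 30 min. It was higher at 60 min in both series with cycloheximide and lower in the series without, and its change of 1.09 ± 0.40 did not pass (adjusted p = 0.0696). When 1 series was dropped, 14, 11 and 26 members rose.

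Of the 10 largest rises, 6 belong to the list of genes known as targets of the oxidative stress factor Yap1. The members of that list were chosen with earlier results of these data known, so this overlap is a description. Whether it exceeds the share of the list among all genes was not tested. Of 32 Yap1 genes tested 13 rose and 1 fell, after 15 had risen and 1 had fallen by 30 min and none had changed at 15 min. FLR1, a multidrug exporter, is not among these 32 and was counted with the drug resistance genes and the plasma membrane transporters. It had 21.5, 3332 and 1144 CPM at 60 min, against 7.58, 236 and 8.88 CPM at 30 min. This was the largest change of all called genes that moved alike in the 3 series (4.52 ± 1.22, adjusted p = 0.02). OYE3, an NADPH oxidoreductase of the old yellow enzyme family, had 8.51, 1011 and 198 CPM at 60 min, against 2.58, 39.1 and 4.24 CPM at 30 min (4.36 ± 0.86, adjusted p = 0.0039). In both genes the groups overlapped, since the Ubc6 library at 30 min stood above the first Sec63 library at 60 min, while the level was higher at 60 min within each series. HBN1, a nitroreductase-like protein, had 304, 2889 and 1209 CPM at 60 min, against 84.5, 234 and 116 CPM at 30 min (3.1 ± 0.41, adjusted p = 0.00026), YML131W, a putative reductase, 219.8, 2199 and 1245 CPM at 60 min, against 90.7, 344 and 99.9 CPM at 30 min (2.71 ± 0.44, adjusted p = 0.00114), and GTT2, a glutathione transferase, 12.3, 514 and 105 CPM at 60 min, against 6.87, 63.9 and 4.77 CPM at 30 min (2.96 ± 0.68, adjusted p = 0.00885). The other 5 of the 10 largest rises with 1 sign in all 3 series were OSI1 (3.65 ± 0.70), YLR460C (3.28 ± 0.76), YCR102C (3.07 ± 0.77), AAD4, a putative aryl-alcohol dehydrogenase (2.65 ± 0.83), and AQY2, an aquaporin (2.52 ± 0.72). FRM2, a nitroreductase-like protein named after its value was seen, was called at 3.76 ± 1.03 with changes of -0.89, 5.41 and 3.98, so its sign differed between series.

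The sizes of these rises differed between the series. The median of the Yap1 list was 0.10 in the Sec63 series with cycloheximide, 0.60 in the Ubc6 series and 0.68 in the Sec63 series without it. For FLR1, which is outside that list, the changes were 1.5, 3.82 and 7.0. The larger rises stood in the Ubc6 series with cycloheximide and in the Sec63 series without it. OYE2, the major old yellow enzyme, had 800.0, 10529.8 and 7337 CPM at 60 min, against 915, 1572 and 785 CPM at 30 min, with changes of -0.19, 2.74 and 3.22. Its fitted change of 2.35 ± 0.61 (adjusted p = 0.0165) rests on the Ubc6 series and the Sec63 series without cycloheximide. HSP31, a methylglyoxalase, followed the same order with 156, 1377 and 651 CPM at 60 min, against 71.7, 215 and 88.9 CPM at 30 min (2.38 ± 0.38, adjusted p = 0.001). The Ubc6 series also started higher for several of them, FLR1 being at 0.687, 168 and 0.134 CPM at 0 min and OSI1 at 0.589, 36.7 and 0.134 CPM. The Ubc6 library at 0 min is the shallowest of the 11. With 1 series left out, 15, 7 and 6 Yap1 genes rose. TRX3, mitochondrial thioredoxin, rose late by 0.64, with changes of 0.70, 0.51 and 0.72, and TAL1, the transaldolase of the pentose phosphate pathway, was the 1 member that fell (-0.76 ± 0.11).

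**Figure D5:**
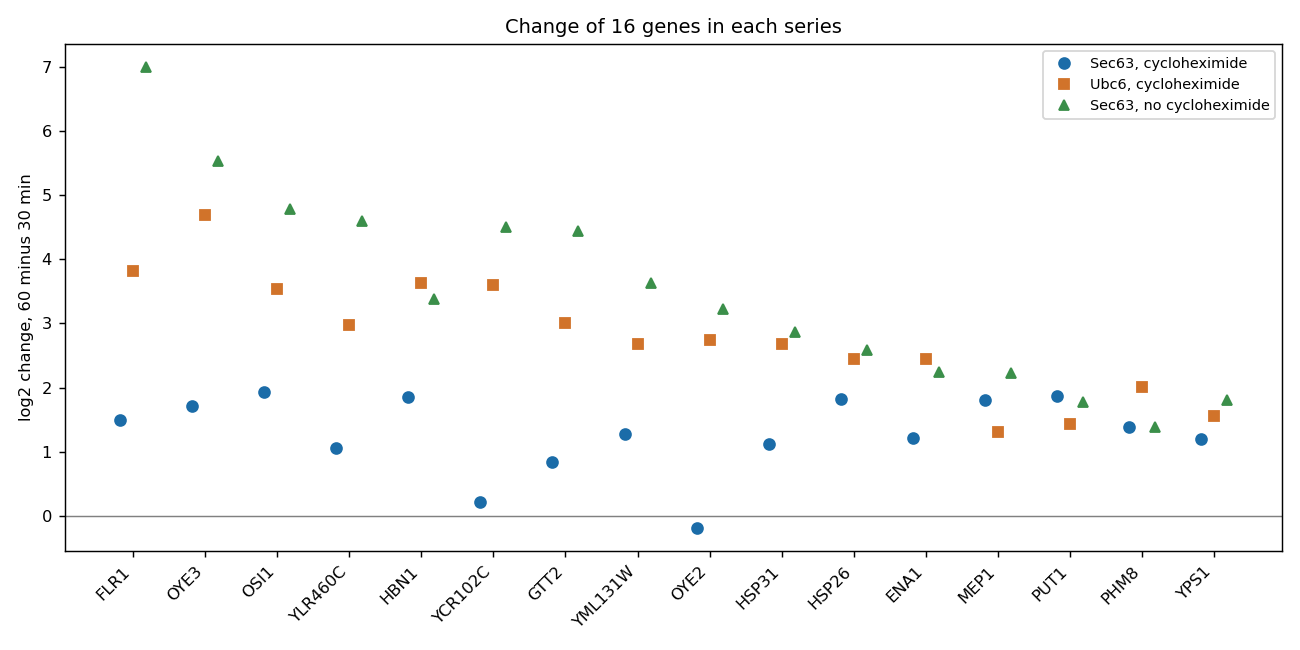
Log2 change of 60 minus 30 min (vertical axis) of 16 genes that rose, 1 point for each of 3 series. For FLR1 the points are 1.5, 3.82 and 7.0 and for OYE2 -0.19, 2.74 and 3.22, whereas those of PUT1, PHM8 and YPS1 lie close together.

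Pleiotropic drug resistance genes, exporters and lipid genes under Pdr1 and Pdr3, gave 4 of 21 higher, FLR1 among them, and 3 lower. Without 1 series, 5, 2 and 3 were higher and 1, 1 and 2 lower. PDR5, the main exporter, had 817, 696 and 1094 CPM at 60 min, against 1156, 1033 and 1593 CPM at 30 min and fell by 0.54 (adjusted p = 0.00683), although its 60 min level in the Sec63 series without cycloheximide lay above the 30 min level in the Ubc6 series. CIS1, a factor of mitochondrial precursor clearance, had 4.06, 52.5 and 13.9 CPM at 60 min, against 4.40, 14.6 and 7.09 CPM at 30 min, with no pass (1.06 ± 0.41, adjusted p = 0.0851). ICT1, a lysophosphatidic acid acyltransferase, rose late with 55.1, 49.5 and 38.1 CPM at 60 min, against 28.2, 18.8 and 20.6 CPM at 30 min (1.07 ± 0.18, adjusted p = 0.00154).

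Sulfur and methionine genes held more peaked genes than any other list. Of 36 tested, 25 had risen and 1 had fallen by 30 min (median 1.04), and in the interval 21 fell and none rose (median -0.56, but 0.12 under the centring, with 11 higher and 4 lower), with 17 in the peaked class, 4 held high and 4 late falls. At 60 min 15 were still above their level at 0 min and 6 were below it. MET6, methionine synthase, had 5191, 3845 and 4679 CPM at 60 min, against 9714, 10859 and 9865 CPM at 30 min (-1.16 ± 0.12, adjusted p = 4.87e-05), and at 0 min it had 6473, 4992 and 5629 CPM. MET5, a subunit of sulfite reductase, had 410.0, 295 and 340.2 CPM at 60 min, against 823, 1187 and 841 CPM at 30 min (-1.45 ± 0.17, adjusted p = 0.000117), and SAM2, which makes S-adenosylmethionine, had 998, 742 and 946 CPM at 60 min, against 1710.3, 1666 and 1787 CPM at 30 min (-0.95 ± 0.12, adjusted p = 0.000173). All 3 had every 60 min level below every 30 min level. The fall was largest in the Ubc6 series, with a median of -0.98, against -0.30 and -0.42 in the Sec63 series with and without cycloheximide. In fits that lacked 1 series, 15, 9 and 19 members fell.

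Genes of amino acid synthesis under Gcn4 turned down more widely. Of 53 genes, 37 fell and 4 rose (median -0.59, but 0.082 under the centring), where the first 30 min had given 10 higher and 13 lower. HOM3, aspartate kinase, had 185, 155 and 187 CPM at 60 min, against 403, 484 and 454 CPM at 30 min and had peaked (-1.35 ± 0.12, adjusted p = 2.41e-05), as had ARG4, argininosuccinate lyase, with 104, 99.6 and 127 CPM at 60 min, against 313, 294 and 306 CPM at 30 min (-1.48 ± 0.14, adjusted p = 3.20e-05). LEU9, ILV3 and ARO4, of leucine, branched-chain and aromatic amino acid synthesis, were still falling at -1.52 ± 0.11, -1.32 ± 0.11 and -1.41 ± 0.12. The 4 that rose included GLN1 and CAR1, described with the nitrogen genes, and, named after their values were seen, ASN1 (0.33 ± 0.11) and AGX1 (1.42 ± 0.31). Of the Aro80 and Ehrlich pathway genes, 1 of 15 rose and 5 fell, and 2, 5 and 3 fell with 1 series left out (median -0.23, but 0.45 under the centring). ARO9 and ARO10, which break down aromatic amino acids and answer to Aro80, were held: ARO9 had 560.2, 538 and 654 CPM at 60 min, against 537, 563 and 774 CPM at 30 min and ARO10 557, 589.8 and 832 CPM at 60 min, against 490.1, 594 and 776 CPM at 30 min, with overlap in both, and their changes were -0.077 ± 0.12 and 0.092 ± 0.15 after 1.78 and 1.8 by 30 min. BAT2, the cytosolic branched-chain aminotransferase, had instead peaked at -0.77 ± 0.092, as had ADH5, an alcohol dehydrogenase, at -1.95 ± 0.25.

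Nitrogen catabolite repression targets, genes for scavenging poor nitrogen sources, rose more often than they fell. Of 34 tested, 16 rose and 1 fell in the interval (median 0.57), where the 30 minus 0 min change had 7 higher and 7 lower. At 15 min, 8 were higher and 3 lower than at 0 min (median 0.42). The list median at 15, 30 and 60 min was 0.41, -0.012 and 0.76 in the Sec63 series with cycloheximide, and 0.51, -0.0054 and 0.44 in the Ubc6 series. GLN1, glutamine synthetase, had 1010.3, 1978, 371 and 670.0 CPM at 0, 15, 30 and 60 min in the Sec63 series with cycloheximide, and 744, 1613, 306 and 681 CPM in the Ubc6 series. It was thus high at 15 min, low at 30 min and part way back at 60 min, a 60 minus 30 min change of 1.07 ± 0.11, adjusted p = 4.48e-05. AGP1, a broad amino acid permease, had 186, 149 and 169 CPM at 60 min, against 80.4, 52.3 and 71.9 CPM at 30 min (1.31 ± 0.13, adjusted p = 4.38e-05), CAR1, arginase, had 308, 287 and 289 CPM at 60 min, against 142, 129.5 and 134 CPM at 30 min (1.13 ± 0.13, adjusted p = 0.000109), and DUR1,2, urea amidolyase (DUR12 in the files), had 47.6, 52.6 and 53.0 CPM at 60 min, against 26.4, 22.7 and 21.4 CPM at 30 min (1.11 ± 0.14, adjusted p = 0.00019). MEP2, the high-affinity ammonium permease, rose late, with 28.5, 46.6 and 33.3 CPM at 60 min, against 9.86, 14.4 and 12.8 CPM at 30 min (1.54 ± 0.18, adjusted p = 9.64e-05). PUT1, proline oxidase, was still rising, with 44.3, 37.7 and 34.5 CPM at 60 min, against 12.1, 14.0 and 10.1 CPM at 30 min (1.7 ± 0.17, adjusted p = 4.40e-05), and MEP1, another ammonium permease, had 53.7, 30.9 and 35.4 CPM at 60 min, against 15.3, 12.5 and 7.49 CPM at 30 min (1.81 ± 0.23, adjusted p = 0.000238). None of these 7 genes had overlapping groups at 60 and 30 min. When 1 series was dropped, 8, 11 and 10 members rose. The 1 that fell, named after its value was seen, was OPT1, an oligopeptide transporter (-1.03 ± 0.17).

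Cell wall integrity genes split evenly, with 15 of 49 higher and 15 lower, and 9, 12 and 7 higher and 7, 12 and 9 lower with 1 series left out. This balance depends on the scaling, with 21 higher and 10 lower with library totals, and 33 and 3 under the centring. Of the rises, 7 were late, among them YPS1, a GPI-anchored protease of the cell surface, with 601, 542 and 617 CPM at 60 min, against 263, 184 and 176 CPM at 30 min (1.51 ± 0.23, adjusted p = 0.00081), and KTR2, a Golgi mannosyltransferase, with 11.3, 17.4 and 10.1 CPM at 60 min, against 4.70, 5.49 and 2.45 CPM at 30 min (1.63 ± 0.26, adjusted p = 0.000877). SLT2, the MAP kinase of the pathway, had 126, 106 and 118 CPM at 60 min, against 79.5, 57.5 and 66.6 CPM at 30 min and was still rising (0.79 ± 0.10, adjusted p = 0.00024). Those that fell included FKS1, the main glucan synthase, with 751, 686 and 810.4 CPM at 60 min, against 1382, 1278 and 1609 CPM at 30 min (-0.92 ± 0.10, adjusted p = 8.09e-05), SUN4, a glucanase of septation (-1.52 ± 0.17), and GAS3, a glucan-modifying protein (-1.15 ± 0.13). Soluble and GPI-anchored secretory proteins, which share several of these genes, were also even at 16 of 55 higher and 16 lower. Without 1 series, 7, 12 and 11 were higher and 9, 11 and 10 lower. With another scaling they had 23 higher and 10 lower with library totals, and 36 and 3 under the centring. Plasma membrane transporters had 9 of 67 higher and 19 lower, and 8, 6 and 9 higher and 5, 9 and 13 lower with 1 series left out. Their balance turned to 20 higher and 6 lower with library totals, and 42 and 1 under the centring. ENA1, a sodium pump known as a calcineurin target and with near-identical neighbours, rose late, with 14.6, 25.0 and 16.8 CPM at 60 min, against 6.31, 4.55 and 3.51 CPM at 30 min (1.9 ± 0.27, adjusted p = 0.000386). ATO3, an ammonium exporter, fell further (-1.57 ± 0.19).

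Of all genes, 24.8% were called in either direction. The counts of the smaller regulons are given beside that share, and they set no list apart. The phosphate list had 2 of 17 higher and 3 lower, with PHM8, a phosphatase, rising by 1.56. The iron regulon had 4 of 25 higher and 3 lower, with LSO1, a small protein induced by iron deprivation, at 2.39 ± 0.39 on 3.43, 13.3 and 4.55 CPM at 60 min, against 0.617, 1.97 and 1.19 CPM at 30 min, and SIT1, a siderophore transporter, at -0.63 ± 0.17. Ergosterol genes had 2 of 32 higher and 8 lower, and 3, 3 and 3 lower with 1 series left out. With another scaling they had 10 higher and 3 lower with library totals, and 28 and 0 under the centring. Their median of -0.064 became 0.17 and 0.61. Hypoxic and heme-regulated genes had 3 of 23 higher and 4 lower (median -0.21, but 0.027 with library totals and 0.47 under the centring), with HAP1, the heme-responsive activator, recovering at 0.85 ± 0.11. Hexose transporters and glucose-repressed genes had 3 of 23 higher and none lower, HXT5, a transporter of slow growth, being at 1.28 ± 0.33 and CAT8, an activator of gluconeogenic genes, at 1.02 ± 0.23. Fits that lacked 1 series called 2, 1 and 1 iron genes higher. They called 1, 2 and 2 hypoxic genes and 3, 2 and 0 hexose genes higher, and 1, 2 and 2 phosphate genes lower. INO1, inositol phosphate synthase, had 65.6, 50.3 and 68.9 CPM at 60 min, against 84.7, 93.0 and 42.8 CPM at 30 min, with overlap and opposite signs between series (-0.28 ± 0.36, adjusted p = 0.614).

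The difference of the 60 minus 30 min change between the series without cycloheximide and the 2 series with it was tested across all genes. The edgeR fit called 0 genes (94 had an unadjusted p under 0.05), and DESeq2 called 4. This test sets 1 series against 2, so it cannot separate the drug from other features of that series, and 0 calls do not show that the changes were equal. In list medians the 3 series ran alike for the large groups, ribosomal proteins, translation factors, histones and proteasome subunits having the same sign in each, and they spread more for Msn2 and Msn4, Yap1 and sulfur genes, as given above.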

How the data were processed

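Ribosome footprints were counted in 15 input libraries of a 30-library study, and the 11 inputs of the 3 auxin series were used here, 6 of them at 60 or 30 min. The values are the authors' deposited counts, whole numbers of footprints per gene with no normalization. Per the submitters' processing notes, CASAVA, Bowtie 1.1.2 and TopHat2 2.1.1 were used with the sacCer3 genome. How reads with several matches, strand and molecular identifiers were handled is not given in the sources used here. Of 5890 listed genes, 5887 matched RefSeq locus tags, which supplied current symbols for 15.

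Genes with a mean count of at least 20 in the 11 inputs (5268) were fitted with edgeR 4.0.16 (R 4.3.3) by the quasi-likelihood test, with TMM scaling, time as a factor and series as a block, and p-values were adjusted by the Benjamini-Hochberg method over all of them at 0.05. Values within a series are log2 CPM with a prior count of 1. The fit was tested on simulated counts with known changes. A held gene moved by at most 0.25 log2 units after 30 min. Members and the 43 gene lists were chosen with earlier results of these data known. Named genes were the up to 10 largest called changes in each direction that had 1 sign in 3 series, up to 5 per class, up to 4 per list by smallest p, and fixed examples. Others are said to be named after their values were seen. A single gene picked by this rule is not reported here. Alternatives were library totals, centring, DESeq2 1.42.0, other filters, other sets of inputs, no block, and leaving out each series. Depth ranged from 2.04 M to 113.5 M counts. No sequences are shown, since none were used here.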

Additional observations from a re-analysis of the deposited data

Results flagged for a closer look

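In 5 results the series without cycloheximide moved against both series with it between 30 and 60 min. HSP12 changed by -0.35 on the log2 scale without cycloheximide, against 2.41 (Sec63) and 1.05 (Ubc6) with it, a difference of -2.03 (edgeR, adjusted p = 1). INO1 changed by 0.69 without the drug, and by -0.37 and -0.89 with it, a difference of 1.32 (edgeR, adjusted p = 1). RPL41B, 1 of a pair of near-identical genes, changed by 0.051 without it, and by -1.32 and -0.90 with it, a difference of 1.19 (edgeR, adjusted p = 1). The median of the zinc and copper list was -0.010 without it, and 0.21 and 0.10 with it, and that of soluble and GPI-anchored secretory proteins was -0.072, and 0.090 and 0.15 with it. These 2 list differences were not tested.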

How the results depend on the processing

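Under DESeq2, both count filters, the fit of the 6 libraries alone and the fit of all 15 inputs, the counts of genes higher and lower stayed within 1.5 times of those reported, except that DESeq2 put 75 genes in the recovering class and called 4 genes for the cycloheximide difference, and all 15 inputs gave 464 held high and 492 held low. Library totals gave 1478 higher and 495 lower for 60 minus 30 min, 443 higher for 30 minus 0 min, and 25 peaked, 237 recovering, 74 held high, 511 held low, 580 late rise, 107 late fall. Centring on glycolysis and translation factor genes gave 3997 higher and 236 lower for 60 minus 30 min, 3696 and 552 for 60 minus 0 min, and 898 still rising, 74 still falling, 16 peaked, 348 recovering, 46 held high, 200 held low, 1511 late rise, 115 late fall. The series is the block of the reported fit. With no replicate block, so without pairing the times by series, 60 minus 30 min had 269 higher and 507 lower, 30 minus 0 min had 502 higher and 15 minus 0 min had 139 and 282, and the classes held 95 still rising, 158 still falling, 25 peaked, 18 recovering, 158 held high, 67 late rise, 189 late fall. Leaving out each series in turn gave 203 to 266 higher and 514 to 587 lower for 60 minus 30 min, 382 to 627 higher and 512 to 778 lower for 30 minus 0 min, 877 to 1305 higher and 1148 to 1308 lower for 60 minus 0 min, 93 to 254 higher and 128 to 386 lower for 15 minus 0 min, and 65 to 91 still rising, 158 to 234 still falling, 23 to 40 peaked, 10 to 24 recovering, 92 to 269 held high, 127 to 275 held low, 35 to 67 late rise, 175 to 221 late fall. The cycloheximide difference left no residual degrees of freedom with 1 series with cycloheximide left out. Of 1683 values of 154 named genes under the alternatives, 1524 kept their direction and side of the threshold and 34 changed sign. With library totals these were HSP42 (0.17), OLE1 (0.066), BTN2 (0.16), ARO9 (0.16), HSP104 (0.20), HSP60 (0.021) and SRP72 (0.044). Under the centring they were PMT2 (0.086), PET9 (0.020), HSP42 (0.61), MRPS28 (0.24), SIT1 (0.052), OLE1 (0.51), BTN2 (0.60), ARO9 (0.60), INO1 (0.41), SSC1 (0.34), HSP104 (0.64), EMP70 (0.027), HSP60 (0.47), SIS1 (0.43), RPL9B (0.40), PDR5 (0.14), EGD1 (0.058), SRP72 (0.49), FAS2 (0.070), CLN2 (0.44) and VPS4 (0.13). With all 15 inputs they were ARO10 (-0.12) and SSA4 (-0.22). With each series left out in turn, values crossed 0 at -0.23 to 0.071 for BTN2, -0.17 to 0.14 for HSP104, -0.19 to 0.034 for HSP42 and -0.66 to 0.086 for INO1. Both scalings shift all genes by 1 amount per library. The causes of the other changes were not tested. Without the Ubc6 series, whose 0 min library was the shallowest, 30 minus 0 min had 627 higher and 778 lower, against 776 and 891 reported, and genes with few footprints were not compared apart.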
